A study of Mus musculus with 2 samples.

Results

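Scavenger and LRP uptake receptors were examined through 8 genes, Lrp1, Msr1, Cd36, Scarb1, Scarb2, Mrc1, Cd68 and Dab2, a list given by gene name whose rule uses no measured value. All 8 were found among the 31053 genes listed, of which 18155 had at least 1 molecule in the cells kept. The cells were microglia, the resident macrophages of the brain, sorted from the hypothalamus of young wild-type mice at 20 h after plasma protein coupled to a dye had been injected. Both groups share that genotype and injection, and they differ in what the flow sort read: plasma-negative microglia were without the dye and plasma-positive microglia carried it. Several mice were pooled, each group is 1 droplet library made with the Chromium 3' v3.1 kit, and the sex and exact age of the mice were not given in the sources used here.

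Macrophages clear proteins, lipoproteins and debris through cell surface receptors that are drawn into clathrin-coated pits and pass their cargo to lysosomes. Scavenger receptors bind a broad range of modified lipoproteins and polyanionic ligands, the mannose receptor binds sugar-bearing glycoproteins, and the LRP family takes up apolipoproteins, protease complexes and other ligands with the help of adaptor proteins. Microglia are known for a strong lysosomal programme, while the mannose receptor is better known as a marker of the macrophages at the brain's borders.

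In these libraries the 8 genes fell into 3 levels that were alike in order in both sorts. Cd68, Lrp1 and Scarb2 were abundant, Scarb1 and Dab2 were well below them, and Mrc1, Msr1 and Cd36 were scarce. Neighbours in this order differed beyond their counting intervals, except Mrc1 and Msr1 in the plasma-negative library. None of the 5 genes abundant enough to be compared differed between the sorts by 25% or more upward or 20% or more downward, while the scarce Mrc1 was 1.51-fold higher in the plasma-positive library. There its level was higher in cells with many Apoe transcripts than in cells without, although cells without Apoe held more of its molecules, 93 of 185. It was higher still in 5 cells with 2 or more markers of border macrophages. In cells of 2000 to 4000 molecules alone the Mrc1 ratio between the sorts was 1.21 (0.817 to 1.79). With 1 library per group no test was possible, and differences between the sorts cannot be told apart from differences between 2 libraries. Intervals given below are 95% and cover counting error only.

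The data were counts of unique molecular identifiers (UMIs), 1 for each captured RNA molecule, taken near the transcript's 3' end, so that levels were compared between genes with no correction for length. A cell was kept if it had 500 UMIs or more, 300 genes or more and no more than 10% of its UMIs on mitochondrial genes, which left 34534518 UMIs from 9860 of 9878 plasma-negative cells and 41984977 from 10362 of 10390 plasma-positive cells. Median depth was 3270.5 and 3753 UMIs per cell, in that order. The labelled cell type was checked against its markers: each of the 11 microglia markers had a UMI in 64.4% of cells or more in the plasma-negative sort and in 68.0% or more in the plasma-positive sort. Because the plasma-positive cells were deeper, the share of cells with a UMI is given both for whole cells and after each cell was thinned at random to 1000 UMIs, which left out 796 plasma-negative and 603 plasma-positive cells that were shallower.

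The promoters of 3 of the genes are shown. Cd68 and Lrp1 were chosen as the abundant genes whose levels varied in opposite directions over the cells. Mrc1 was chosen as the gene of the 8 with the highest ratio between plasma-positive cells with many Apoe transcripts and those without. RefSeq promoter windows on GRCm38.p6 were matched for 6 of the 8 genes, and the 250 bases before the transcription start are printed 5' to 3' on the gene's strand. Cd68 (chr11:69666171-69666420, minus strand), Lrp1 (chr10:127621149-127621398, minus strand) and Mrc1 (chr2:14229164-14229413, plus strand) read as follows, with capitals marking every match to GAGGAA, the core of sites bound by the myeloid factor PU.1, on either strand and to TGANTCA, the AP-1 site.
Cd68: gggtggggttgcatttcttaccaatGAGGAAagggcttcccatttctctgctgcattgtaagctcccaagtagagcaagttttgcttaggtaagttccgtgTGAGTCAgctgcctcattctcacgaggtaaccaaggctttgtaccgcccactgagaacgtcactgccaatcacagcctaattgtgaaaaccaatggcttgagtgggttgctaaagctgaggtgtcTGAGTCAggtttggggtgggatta
Lrp1: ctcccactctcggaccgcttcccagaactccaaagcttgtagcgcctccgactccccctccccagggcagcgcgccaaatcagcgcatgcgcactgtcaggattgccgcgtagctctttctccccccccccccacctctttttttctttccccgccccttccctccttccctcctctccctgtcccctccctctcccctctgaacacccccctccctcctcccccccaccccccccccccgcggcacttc
Mrc1: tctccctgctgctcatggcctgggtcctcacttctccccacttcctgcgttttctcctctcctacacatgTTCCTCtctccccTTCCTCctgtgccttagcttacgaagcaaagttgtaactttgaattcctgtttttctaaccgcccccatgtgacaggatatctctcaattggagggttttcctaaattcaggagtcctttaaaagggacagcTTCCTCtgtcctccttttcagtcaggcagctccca
The Cd68 window held 1 PU.1 core, beginning at position -225 from the start, and 2 AP-1 sites, beginning at -149 and -24. The Mrc1 window held 3 PU.1 cores on the opposite strand, at -180, -167 and -35. The Lrp1 window held no match to either motif, and no match to the E-box CACGTG was found in any of the 3. Of 32851 windows of the same length, 23.3% held the PU.1 core, 6.75% the AP-1 site and 6.02% the E-box, and no 2 of these motifs overlapped in the windows shown. The Lrp1 window was GC-rich, with 67.2% G or C and 13 CG steps, against 49.2% and 4 for Cd68, 49.6% and 3 for Mrc1, and medians of 52.4% and 6 over all windows. A match of letters is a description of the window and was not tied to binding here.

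Of the lysosomal members, Cd68 was the most abundant of the 8 genes, and Scarb2 stood below Lrp1. Cd68, which encodes macrosialin, a heavily glycosylated class D scavenger receptor kept mostly in late endosomes and lysosomes, lies on chromosome 11 from 69664213 to 69666153 (minus strand; coordinates are from GENCODE M21 on GRCm38, and all 8 genes are protein-coding there). Its 20266 plasma-negative UMIs gave 587 counts per 1000000 UMIs of the library (CPM; 579 to 595), and its 23702 plasma-positive UMIs gave 564.5 CPM (557 to 572). The plasma-positive level was thus 0.962 times the plasma-negative one (0.944 to 0.980), a difference beyond counting error but small. When library totals were scaled by the trimmed mean of M-values (TMM), the ratio was 0.988 (0.970 to 1.01), and in cells of 2000 to 4000 UMIs alone it was 0.988 (0.960 to 1.02), both intervals reaching 1.

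Whole cells held a Cd68 UMI in 76.9% of cases in the plasma-negative library and 79.3% in the plasma-positive one. At 1000 UMIs per cell this order turned, to 43.1% (42.1 to 44.1) and 41.7% (40.7 to 42.6), so that the higher share in whole plasma-positive cells went with their greater depth. Scarb2, which encodes LIMP-2, a class B family member of the lysosomal membrane that carries beta-glucocerebrosidase there, lies on chromosome 5 from 92441314 to 92506833 (minus strand). It was read at 181 CPM from 6245 plasma-negative UMIs and at 184 CPM from 7705 plasma-positive UMIs, a ratio of 1.01 (0.981 to 1.05). Under TMM scaling the Scarb2 ratio was 1.042 (1.008 to 1.078). At equal depth, 16.1% of cells of each library held a Scarb2 UMI, against 42.9% and 47.6% of whole cells.

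**Figure D1:**
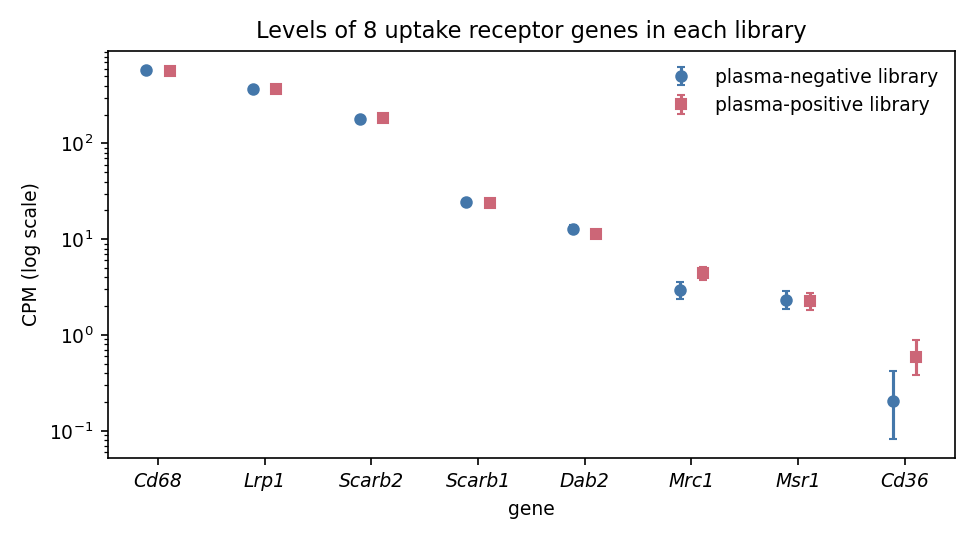
Level of each of the 8 genes in CPM (log scale) in the plasma-negative library (circles) and the plasma-positive library (squares), with 95% counting intervals, 1 library per group. Cd68, Lrp1 and Scarb2 lie above 100 CPM, and the plasma-positive symbol lies clearly above the plasma-negative one only for Mrc1 and Cd36.

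Among the surface endocytic receptors, Lrp1 stood alone in abundance. It encodes a very large member of the LDL receptor family that internalises apolipoprotein E, protease and inhibitor complexes and many other ligands, and it lies on chromosome 10 from 127538161 to 127621148 (minus strand). Its 12784 plasma-negative UMIs gave 370.2 CPM (364 to 377), and its 15635 plasma-positive UMIs gave 372 CPM (367 to 378). The ratio was 1.01 (0.983 to 1.03), and 1.03 (1.01 to 1.06) under TMM scaling. A difference of more than 1.06-fold in either direction lay outside these counting intervals. Whole cells held an Lrp1 UMI in 63.8% and 68.5% of cases, and thinned cells in 30.4% (29.4 to 31.3) and 29.97% (29.1 to 30.9).

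Scarb1, which encodes SR-BI, the receptor that takes cholesteryl esters from high-density lipoprotein, lies on chromosome 5 from 125277087 to 125341094 (minus strand). Its 843 plasma-negative and 1001 plasma-positive UMIs gave 24.4 and 23.8 CPM, a ratio of 0.977 (0.890 to 1.07). Detection at equal depth was 2.27% and 2.22% of cells. Dab2, a clathrin adaptor that binds the tails of LDL receptor family members, lies on chromosome 15 from 6299788 to 6440712 (plus strand), where the processed pseudogene Gm18888 overlaps its exons on the other strand, and use of strand in counting was not given in the sources used here. It was read at 12.8 CPM from 443 UMIs and at 11.5 CPM from 481 UMIs, a ratio of 0.893 (0.783 to 1.02). Neither gene's interval excluded an equal level, though with the cells of highest Scrublet doublet score removed the Dab2 ratio was 0.864 (0.751 to 0.994), and changes smaller than those intervals were not detectable at this depth.

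The remaining 3 receptors were scarce. Mrc1, the mannose receptor CD206, lies on chromosome 2 from 14229392 to 14332057 (plus strand). It was counted 101 times in 83 plasma-negative cells and 185 times in 133 plasma-positive cells, which gave 2.92 CPM (2.38 to 3.55) and 4.41 CPM (3.79 to 5.09). The plasma-positive level was 1.51 times higher (1.18 to 1.94), and the share of cells with a UMI was 0.842% and 1.28% in whole cells and 0.254% and 0.410% at equal depth. The 2 CPM intervals did not overlap, but the gene lies below the 10 CPM at which genes were compared, and in cells of 2000 to 4000 UMIs the ratio was 1.21, with an interval from 0.817 to 1.79 that reaches 1.

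Msr1, the class A scavenger receptor for modified lipoproteins and fibrillar proteins, lies on chromosome 8 from 39581685 to 39642673 (minus strand). It was read at 2.35 CPM (1.86 to 2.92) and 2.24 CPM (1.81 to 2.74), from 81 UMIs in 76 cells and 94 UMIs in 86 cells. The ratio of 0.955 had an interval from 0.702 to 1.30, so a level 25% higher or 20% lower was not detectable at this depth. Cd36, a class B scavenger receptor and long-chain fatty acid transporter, lies on chromosome 5 from 17781690 to 17888801 (minus strand). Its UMIs numbered 7, in 5 cells, in the plasma-negative library and 25, in 21 cells, in the plasma-positive library, 0.203 and 0.595 CPM. That ratio was 2.94, with an interval from 1.24 to 8.04 set by the 7 UMIs on one side. In cells of 2000 to 4000 UMIs it was 1.499 (0.254 to 10.2), and in cells with neither an Apoe UMI nor one of an interferon-response list 2.002 (0.428 to 12.4), so that neither excluded an equal level.

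Set beside all genes, the members moved little. Of 8355 genes at 10 CPM or more in at least 1 library, 78 (0.934%) stood at least 25% higher in the plasma-positive library and 72 (0.862%) stood at least 20% lower, which is the same fold downward. At 1.5-fold, 27 (0.323%) stood higher and 2 (0.0239%) lower. None of the 5 members that reached that minimum passed either fold in either direction, a count that says little where fewer than 1 gene in 100 does. Their log2 ratios ran from -0.16 (Dab2) to 0.02 (Scarb2) with a median of -0.03, and the median of all genes was -0.04, with quartiles of -0.11 and 0.04. With no minimum beyond 1 UMI in each library, Mrc1 and Cd36 were the 2 of 8 members past the smaller fold, both upward. At that setting 8 of 72 other pathway genes, described further on, also stood higher and 3 lower. The share over all genes was not computed there, so these 2 members cannot be set against it.

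**Figure D2:**
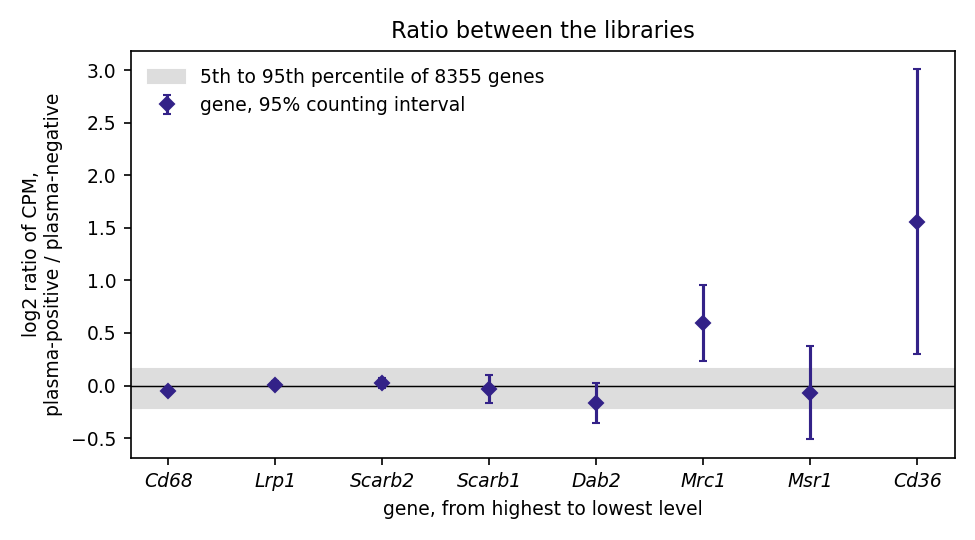
Log2 ratio of CPM, plasma-positive over plasma-negative, for each gene with its 95% counting interval, the genes in order of level, and the grey band holding the 5th to 95th percentile of 8355 genes (-0.21 to 0.16). The 5 more abundant genes lie inside the band, and Mrc1 and Cd36 lie above it with both intervals clear of it. The band was drawn from genes at 10 CPM or more in at least 1 library, a minimum that Mrc1, Msr1 and Cd36 do not reach.

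The members made up a small and steady share of the transcriptome. They held 0.118% of plasma-negative and 0.116% of plasma-positive UMIs, and Cd68, Lrp1 and Scarb2 contributed 96.4% and 96.3% of that. In cells of 1000 UMIs the counts of these 3 had a ratio of variance to mean from 1.01 to 1.12, where 1 is the value of a Poisson count. Their means there were only 0.177 to 0.591 UMIs per cell. At such low counts the ratio lies near 1 even where levels differ between cells, so it says little about how evenly they were expressed. Thinned cells without any member made up 31.5% of the plasma-negative and 33.2% of the plasma-positive library, and cells with all 3 abundant members 2.02% and 2.15%. The Pearson correlation of thinned counts over cells was -0.031 and -0.011 for Lrp1 with Cd68, -0.009 and 0.009 for Lrp1 with Scarb2, and 0.007 and -0.001 for Scarb2 with Cd68, over 9064 plasma-negative and 9759 plasma-positive cells. These are weak values from sparse counts that share a library and a fixed depth, and they are given as a description. The highest of the 28 pairs was Msr1 with Mrc1 in the plasma-positive library, at 0.083, which rested on 2 cells.

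The transcripts whose counts ran most like those of each member were sought among 3354 genes with at least 50 CPM in both libraries, by the lower of the 2 libraries' correlations over thinned cells. For Cd68 they were Cst3, which encodes the protease inhibitor cystatin C (0.078 and 0.084 in the plasma-negative and plasma-positive library), and the complement genes C1qa (0.072 and 0.083) and C1qc (0.070 and 0.064). For Lrp1 they were the transcription factor gene Mef2a (0.053 and 0.061), the mitochondrial gene mt-Nd4 and the cytoskeletal linker Macf1. For Mrc1 the first was the chemokine gene Ccl12 (0.045 and 0.040). All of these correlations are weak, and in sparse counts they stand as a description only.

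The levels of the abundant members depended on how deep the cell was, and did so alike in both sorts. In plasma-negative cells Lrp1 was at 703 CPM (638 to 774) in cells of 500 to 1000 UMIs, 454 CPM in those of 1000 to 2000, 329.5 CPM (321 to 338) in those of 2000 to 4000, 388 CPM in those of 4000 to 8000 and 413 CPM in deeper ones. Plasma-positive cells gave 664 CPM (591 to 744), 514, 334 (325 to 344), 377 and 406 CPM in the same order. Lrp1 was thus highest in the shallowest cells and lowest in the middle range, with no overlap of the intervals between them. Cd68 ran the other way, with 399.8 CPM (350.5 to 454) in the shallowest plasma-negative cells and 607 CPM (595 to 619) in cells of 2000 to 4000 UMIs, against 348 CPM (295 to 407) and 599.5 CPM (587 to 612) in plasma-positive cells.

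Between cells of 500 to 1000 and of 2000 to 4000 UMIs, Lrp1 was 2.13 times higher in the shallower plasma-negative cells (1.93 to 2.36) and 1.99 times higher in the shallower plasma-positive cells (1.76 to 2.23). For Cd68 the ratios were 0.659 (0.577 to 0.750) and 0.580 (0.492 to 0.680). Over all genes the same ratio had a median of 1.18 with quartiles of 0.744 and 1.73 in the plasma-negative library, and of 1.21 with quartiles of 0.713 and 1.83 in the plasma-positive library. Lrp1 lay above and Cd68 below those quartiles in both. The shallow cells, 796 and 603 in number, also had a higher median share of mitochondrial UMIs, 2.52% against 0.981% and 2.49% against 1.15%, and with a limit of 5% mitochondrial UMIs the Lrp1 ratios were 2.03 and 1.997. Their part in the result beyond that limit was not tested. Scarb2 ranged only from 174 to 207 CPM over the 5 depths in both libraries.

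**Figure D3:**
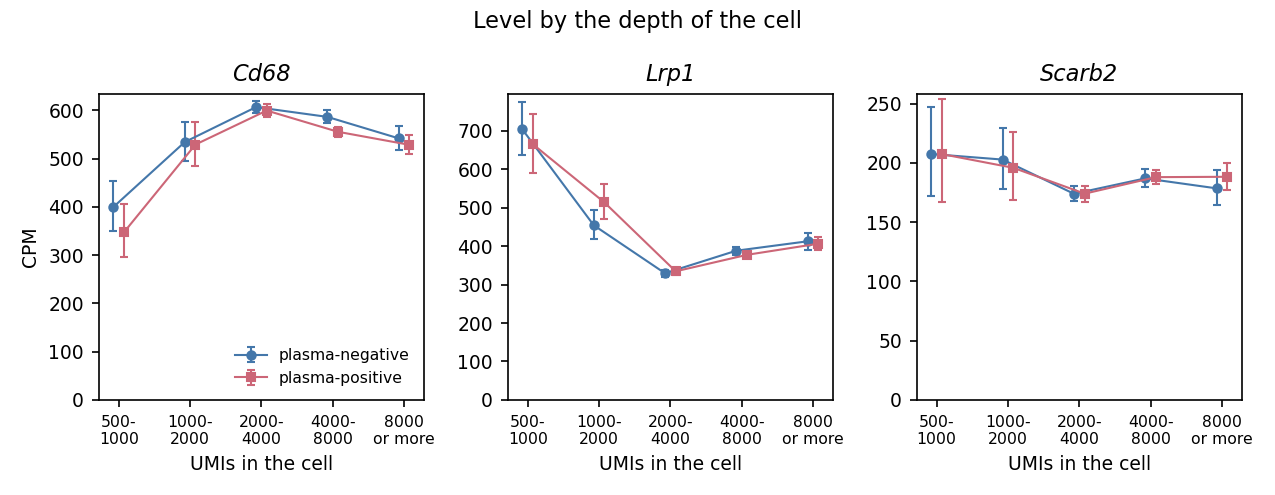
CPM of Cd68, Lrp1 and Scarb2 (linear axes from 0) in cells grouped by their total UMIs, plasma-negative in circles and plasma-positive in squares, with 95% counting intervals. Lrp1 falls from 703 and 664 CPM in the shallowest cells to 329.5 and 334 CPM at 2000 to 4000 UMIs, Cd68 rises from 399.8 and 348 to 607 and 599.5 CPM, and the libraries lie close together.

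The members were next followed across states of the cells within each library. Cells thinned to 1000 UMIs were split by how many UMIs they held of Apoe, the gene of the lipid carrier apolipoprotein E and itself a ligand of LRP1, at 0, 1 to 2, and 3 or more, and member levels were taken from all UMIs of those cells. These classes are ranges of a count and not cell types, and the number with 3 or more was 158 of 9064 plasma-negative cells (1.74%) and 637 of 9759 plasma-positive cells (6.53%). Mrc1 had the highest ratio over them of the 8 genes in the plasma-positive library. In plasma-positive cells without Apoe it was at 2.82 CPM, from 93 UMIs. At 1 to 2 Apoe UMIs it was at 3.91 CPM from 21 UMIs, and at 3 or more at 22.4 CPM (17.5 to 28.3) from 71 UMIs.

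Within the plasma-positive library, then, Mrc1 was 7.97 times higher in cells with 3 or more Apoe UMIs than in cells with 0 (5.77 to 11.0). It was detected in 38 of those 637 cells, 5.97% (4.26 to 8.10), against 79 of 7936 cells without Apoe, 0.995%. In the plasma-negative library the levels were 2.96, 2.63 and 1.75 CPM over the same 3 classes, the last from 1 UMI in 158 cells with an interval of 0.0442 to 9.73, too few for a direction: the ratio to cells without Apoe was 0.590 (0.0148 to 3.37), and after thinning to 2000 UMIs it was 1.57 (0.496 to 3.82) from 5 UMIs. Between the libraries, Mrc1 in cells without Apoe stood at a ratio of 0.952 (0.706 to 1.28), and in cells with 3 or more Apoe UMIs at 12.9 (2.23 to 515). The higher Mrc1 level of the plasma-positive library was therefore not seen in the 8350 plasma-negative and 7936 plasma-positive cells without an Apoe UMI after thinning. In cells with neither an Apoe nor an interferon list UMI after thinning the ratio was 0.930 (0.653 to 1.32).

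Read from the other side, 40.6% of plasma-positive cells with an Mrc1 UMI held an Apoe UMI after thinning (32.2 to 49.5), against 18.4% of those without Mrc1. In the plasma-negative library the shares were 7.41% (2.77 to 15.4) and 7.88%. For UMIs of an interferon-response list of 15 genes, among them Ifitm3, Isg15 and Bst2, the shares were 43.6% and 30.5% in the plasma-positive library and 23.5% and 24.8% in the plasma-negative one. Mrc1-bearing plasma-positive cells were thus more often Apoe-bearing, and the plasma-negative ones were not measurably so.

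Mrc1 was also higher with other lists, in both libraries. Over a chemokine list (Ccl2, Ccl3, Ccl4 and Ccl12) it was 7.26 times higher in plasma-negative cells with 3 or more list UMIs than in cells with 0 (2.82 to 15.7), from 7 UMIs in 4 of 92 cells, and 3.97 times higher in plasma-positive cells (2.43 to 6.23), from 23 UMIs in 13 of 341 cells. Over the MHC class II list 9 plasma-positive UMIs lay in 1 of the 13 cells with 3 or more list UMIs, so that the ratio of 49.8 (22.4 to 96.8) rests on that cell, and 0 plasma-negative ones did. The variation of Mrc1 was thus not limited to Apoe or to the plasma-positive library.

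Free RNA in the droplets can put single UMIs into cells that do not express a gene, and no cell type that should lack Mrc1 was at hand. Pomc, the neuropeptide precursor gene of hypothalamic neurons, served for comparison. Its share of cells with a UMI was 0.842% in the plasma-negative and 0.907% in the plasma-positive sort, close to the shares for Mrc1 and Msr1, so single UMIs of these genes cannot be read as expression by the cell that holds them. Over the 3 Apoe classes of the plasma-positive library Pomc stood at 2.45, 2.24 and 2.53 CPM, in 0.920%, 1.01% and 1.10% of cells. Unlike Mrc1, it was at a like level in each.

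**Figure D4:**
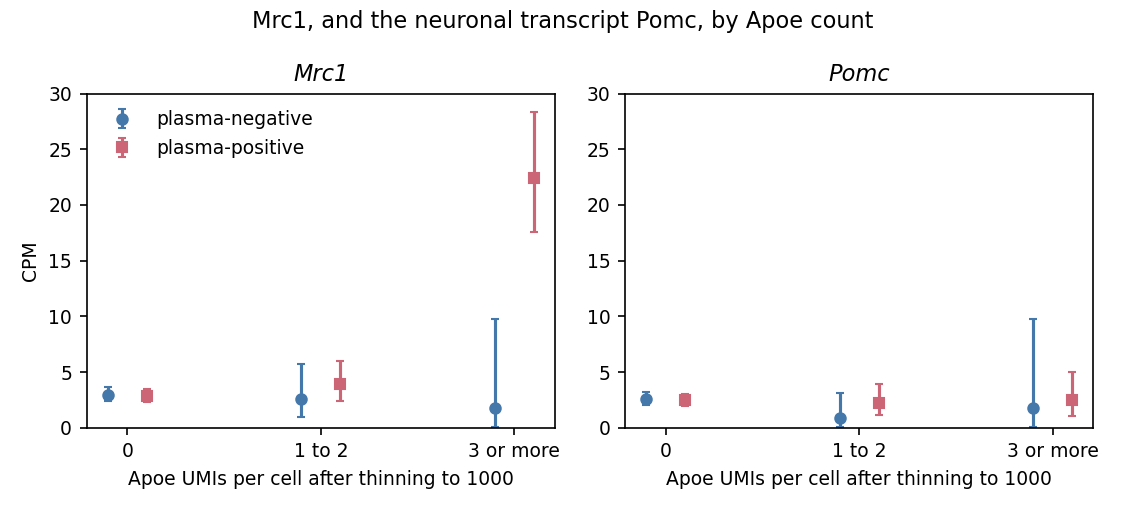
CPM (linear axes from 0) of Mrc1 and of the neuronal transcript Pomc in cells grouped by Apoe UMIs after thinning to 1000, plasma-negative in circles and plasma-positive in squares, with 95% counting intervals. Mrc1 reaches 22.4 CPM in plasma-positive cells with 3 or more Apoe UMIs, where Pomc stays at 2.53 CPM.

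Mrc1 is also transcribed in border-associated macrophages, and the summed level of their markers, like that of Mrc1, was higher in the plasma-positive library. The 10 markers (Cd163, Lyve1, F13a1, Pf4, Cbr2, Ms4a7, Clec10a, Mgl2, Folr2 and Cd209f) summed to 40 UMIs, 1.16 CPM, in the plasma-negative library, where Cd163, Lyve1, F13a1, Clec10a and Cd209f were at 0. In the plasma-positive library they summed to 119 UMIs, 2.83 CPM, with Lyve1 and Cd209f at 0. At least 1 of them was found in 33 of 637 plasma-positive cells with 3 or more Apoe UMIs, 5.18% (3.59 to 7.20), against 40 of 7936 cells without Apoe, 0.504%, and in 3 of 158 and 31 of 8350 plasma-negative cells.

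Cells without a UMI of any of these markers held all 101 Mrc1 UMIs of the plasma-negative and 160 of 185 (86.5%) of the plasma-positive library. At 1.16 and 2.83 CPM summed over the 10 markers, the lack of such a UMI says little about a single cell. Only 5 cells, all plasma-positive, held 2 or more of the markers, and they carried 14 Mrc1, 7 Msr1 and 4 Dab2 UMIs. Mrc1 was at 519 CPM (284 to 871) in them. With all marker-bearing cells left out, Mrc1 was 1.31 times higher in the plasma-positive library (1.02 to 1.70), and in that library 5.46 times higher in cells with 3 or more Apoe UMIs than in cells with 0 (3.75 to 7.85), from 46 UMIs in 28 cells. How far border macrophages lacking a marker UMI, or droplets that held a second cell, entered this remainder was not tested.

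Msr1 and Cd36 were too scarce to follow in the same detail. In the plasma-positive library Msr1 was at 5.06 CPM, from 16 UMIs, in cells with 3 or more Apoe UMIs and at 1.85 CPM, from 61 UMIs, in cells without, a ratio of 2.74 (1.47 to 4.81). In the plasma-negative library Msr1 gave 0 and 74 UMIs. Cd36 was found in 20 thinned plasma-positive cells, of which 9 held an Apoe UMI and 13 an interferon list UMI. Split by the interferon list, Cd36 was at 3.56 CPM in plasma-positive cells with 3 or more list UMIs and at 0.281 CPM in cells with 0, from 8 UMIs each, a ratio of 12.7 (4.15 to 38.8), while plasma-negative cells with 3 or more held 0 Cd36 UMIs. Over the chemokine list 8 and 11 plasma-positive Cd36 UMIs gave a ratio of 15.7 (5.48 to 42.8). In the plasma-negative library it came from 4 UMIs in 2 of 92 cells and 1 UMI in 7790 cells, a ratio of 303 (29.99 to 14922). Over a list of disease-associated genes, described further on, 3 Cd36 UMIs in each library lay in 1 plasma-negative and 2 plasma-positive cells of the 18 with 3 or more list UMIs, against 2 plasma-negative and 13 plasma-positive UMIs in cells with 0, ratios of 483 (55.3 to 5780) and 77.9 (14.2 to 283). These Cd36 ratios rest on counts of at most 13 in few cells, and their intervals treat UMIs of the same cell as independent. In the plasma-negative library 1 cell held 3 of the 7 Cd36 UMIs. The 21 plasma-positive cells with Cd36 had a median of 6673 UMIs, against 3753 in that library, and the part of depth was not tested. Plasma-negative Msr1 stood at 27.2 (9.66 to 62.2) over the disease-associated list, from 6 UMIs in 3 of 18 cells. Over the chemokine list it stood at 5.74 (1.80 to 14.1), from 5 UMIs in 2 of 92 cells. The plasma-positive Msr1 ratios were 8.03 (0.957 to 29.9) and 2.13 (0.825 to 4.62), in that order. Over immediate early genes, also described further on, Msr1 stood at 3.12 (1.19 to 6.95) and 0.443 (0.0110 to 2.56).

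In CPM, Cd68 and Lrp1 parted over the Apoe classes. Cd68 was at 751 CPM in plasma-negative cells with 3 or more Apoe UMIs and at 586 CPM in cells with 0, a ratio of 1.28 (1.16 to 1.41), and at 606 against 565 CPM in plasma-positive cells, a ratio of 1.07 (1.02 to 1.12). Lrp1 was at 353 against 364 CPM in plasma-negative cells, a ratio of 0.968 (0.838 to 1.11), and at 302.5 against 375 CPM in plasma-positive cells, a ratio of 0.807 (0.755 to 0.862). On the log2 scale all genes had medians of -0.17 and -0.21 in these contrasts, with quartiles of -0.43 and 0.09 in the plasma-negative and -0.37 and -0.03 in the plasma-positive library. Cd68, at 0.36 and 0.10, lay above the upper quartile in both libraries, and Lrp1, at -0.05 and -0.31, lay between the quartiles in both. In cells with 3 or more Apoe UMIs Cd68 was lower in the plasma-positive library, at 0.807 of the plasma-negative level (0.727 to 0.898), whereas in cells without Apoe the ratio was 0.964 (0.945 to 0.984). At equal depth, 38.0% (30.4 to 46.0) of plasma-negative cells with 3 or more Apoe UMIs held a Cd68 UMI, against 43.3% of those with 0. The plasma-positive shares were 44.4% (40.5 to 48.4) and 41.4%. Detection at equal depth thus showed neither the plasma-negative rise nor the lower plasma-positive level in that class.

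Over the chemokine list Lrp1 was lower in cells with 3 or more list UMIs than in cells with 0, at 0.826 (0.682 to 0.992) in the plasma-negative and 0.749 (0.680 to 0.825) in the plasma-positive library. The latter lay below the lower quartile of all genes, -0.42 against -0.35 on the log2 scale, and the former, at -0.28 against -0.38, did not. Over the interferon list Lrp1 stood at 0.880 (0.750 to 1.03) and 0.853 (0.790 to 0.920). Scarb2 stood at 1.08 and 0.974 over Apoe, 1.10 and 1.05 over interferon and 0.853 (0.648 to 1.10) and 0.982 over the chemokine list, each interval including 1. Over a list of immediate early genes such as Fos and Jun, which handling of the tissue can raise, Cd68 stood at 0.981 and 1.02 and Lrp1 at 1.02 and 0.989, and Scarb2 differed in direction, at 0.855 (0.723 to 1.00) and 1.24 (1.08 to 1.42).

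The largest Cd68 contrast came with genes of disease-associated microglia, the lipid-handling state described in neurodegeneration (Lpl, Spp1, Cst7, Itgax and Axl were used). Only 18 cells in each library held 3 or more list UMIs. Their Cd68 level was 975 CPM from 99 UMIs in the plasma-negative and 1147 CPM from 134 UMIs in the plasma-positive library, 1.66 (1.35 to 2.02) and 2.05 (1.71 to 2.43) times that of cells with 0. With the 8% of cells with most UMIs left out the plasma-positive ratio was 2.04 (1.55 to 2.64), but the plasma-negative one turned to 0.798 (0.465 to 1.28) on 17 UMIs in 11 cells, so the plasma-negative value rests on a few deep cells. Lrp1 was not clearly different in these cells, at 1.08 (0.772 to 1.47) and 0.858 (0.604 to 1.18), nor was Scarb2, at 0.5995 (0.299 to 1.07) and 0.606 (0.322 to 1.04). Dab2 stood at 7.77 (3.70 to 14.4) from 10 UMIs in 3 plasma-negative cells, and at 1.51 (0.182 to 5.48) from 2 plasma-positive UMIs. Lists of MHC class II and cell cycle genes marked from 13 to 35 cells per library at 3 or more UMIs. There the plasma-positive Lrp1 ratio was 0.561 (0.256 to 1.07) over MHC class II and 0.719 (0.538 to 0.941) over the cell cycle, and the plasma-negative values were 0.742 (0.424 to 1.20) and 0.778 (0.493 to 1.17).

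**Figure D5:**
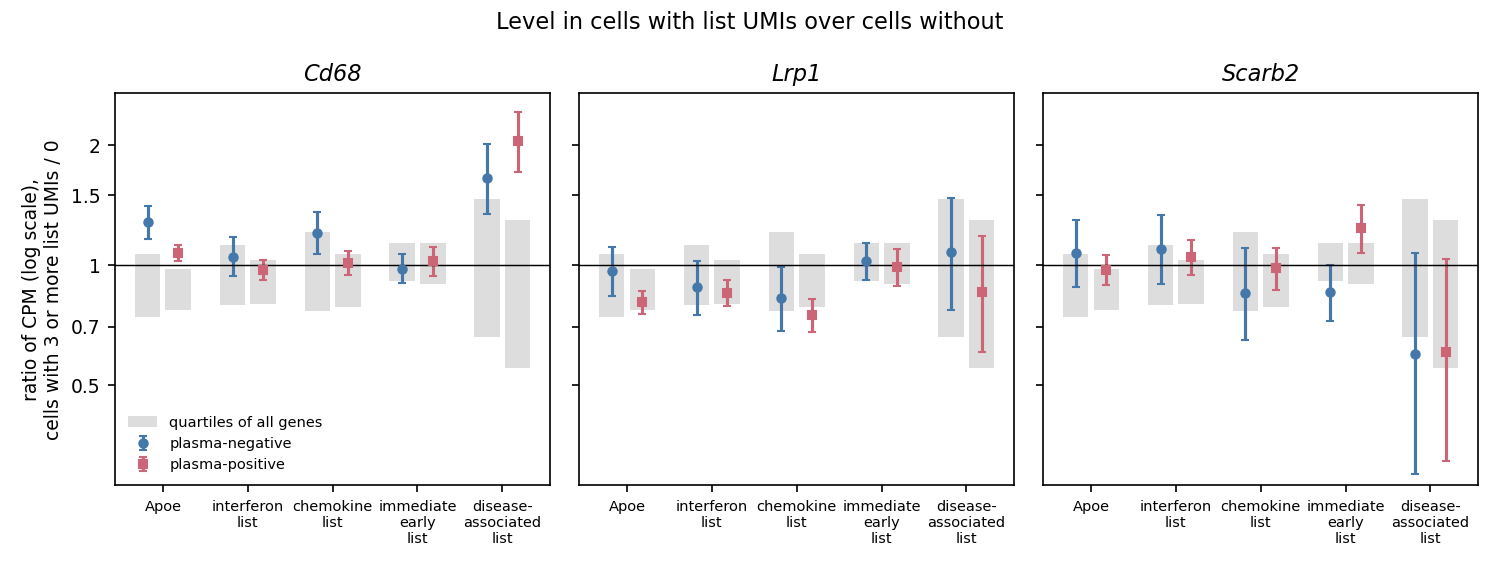
Ratio of CPM (log scale) in cells with 3 or more UMIs of each list over cells with 0, for Cd68, Lrp1 and Scarb2 over 5 of the 7 lists, plasma-negative in circles and plasma-positive in squares, with 95% counting intervals and grey bars for the quartiles of all genes. Cd68 lies above the bars for Apoe and the disease-associated list in both libraries, and the lowest Lrp1 value plotted is 0.749, for the chemokine list in the plasma-positive library.

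The genes that work beside these receptors were taken from 7 lists, with 96 genes in the files. Of the 52 that reached 10 CPM, 1 stood at least 25% higher in the plasma-positive sort and 0 stood at least 20% lower. Over all 8355 genes these shares were 0.934% and 0.862%, so 0 genes past the fold in any list below says little. The gene that stood higher was Apoe, at 171 CPM in the plasma-negative and 1190.0 CPM in the plasma-positive library. Its log2 ratio was 2.80, and it belonged to the 12 LRP1 ligands. The other 5 ligands compared stayed within the fold, among them Calr, calreticulin, at 626 and 616 CPM, and the list's median log2 ratio was 0.03. The median over all 8355 genes was -0.04, as above.

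For uptake itself, 17 of 20 genes of clathrin coats and their adaptors were compared, with a median log2 ratio of 0.05 and none past that fold. Clta, a clathrin light chain, was at 672 and 706 CPM, and Picalm, a coat assembly protein, at 513 and 480.1 CPM. Of 14 further LDL receptor family genes and chaperones 6 were compared, with a median of 0.08 and none past the fold. Lrpap1, the chaperone of LRP1 in the secretory pathway, was at 129 and 139 CPM, and the receptor gene Lrp10 at 82.1 and 85.0 CPM. Log2 ratios ran from -0.22 to 0.20 over the coat and adaptor genes and from -0.19 to 0.17 over the family genes, with Lrp1, at 0.01, between these ends.

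In the lysosomal membrane, 10 of 12 listed genes were compared, with a median of 0.03 and none past the fold. Laptm5 was at 1928 and 2027 CPM, and Lamp1, a major glycoprotein of that membrane, at 863 and 940.5 CPM, so that both stood above Cd68. Of 14 partners of the class B receptors 8 were compared, with a median of 0.02, and the tetraspanin genes Cd81 (2789 and 3007 CPM) and Cd9 (1313 and 1216 CPM) were the most abundant. None of these passed the fold.

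Other scavenger receptors were mostly scarce. Only 2 of 15 reached 10 CPM, Stab1, which encodes stabilin-1, at 176 and 182 CPM and Cxcl16, a chemokine that also acts as a scavenger receptor, at 53.9 and 64.2 CPM, and their median log2 ratio was 0.15. Among 9 mannose receptor family and related lectin genes 3 were compared, with a median of -0.01. Clec4a3 was at 148 and 130.2 CPM and Clec4a2 at 141 and 139.7 CPM. None of the 5 genes passed the fold, and Stab1 was thus the only other listed scavenger receptor in the range of Scarb2.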

How the data were processed

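The deposited values are UMI counts per gene and cell, 1 matrix per library, and the file headers credit them to Cell Ranger 6.1.2, where the submitters' processing notes name Cell Ranger 3.0.1. Build, annotation, strand and cell calling are not given in the sources used here, and cell barcodes were not used here. The genes and lists were chosen with earlier results of these data known.

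Counts were summed per library over the kept cells and divided by the library total (CPM). Sums carry exact Poisson, shares Clopper-Pearson and ratios exact conditional binomial intervals (Python 3.11.15 with pandas 2.3.3, numpy 2.4.6 and scipy 1.17.1). The interval computation was tested on simulated data. The fold rules are rules of size, for genes at 10 CPM or more in at least 1 library. Scrublet in scanpy 1.11.5 called 0 doublets in either library, where the rate set from the number of cells was 7.89% and 8.29%. The call was therefore not relied on. None were removed, and alternatives removed the highest scores or the 8% of cells with most UMIs. Named genes were the 8 members, the first 3 genes by correlation with a member, genes 25% higher or 20% lower on a pathway list and each list's 2 most abundant. The classes of cells by Apoe and other lists use fixed thinning (seed 1). Mitochondrial, total, scaling, doublet, border marker and depth choices were varied. Some genes that the rule for named genes picked are not reported here.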

Additional observations from a re-analysis of the deposited data

How the results depend on the processing

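No paired analysis was possible because there is 1 library in each group, and for the same reason no library could be left out. Of 142 alternative values, 102 moved by less than the counting interval, 38 moved by more and 2 reversed. Counts of genes past a fold have no such interval and were judged by the size of their change. Most of the 38 were shares of cells with a UMI, at 2000 UMIs per cell or without thinning, where more kept UMIs raise detection. For plasma-negative Lrp1 the share went from 30.4% to 47.9% and 63.8%. For the 8 ratios between libraries, 75 of 80 alternatives stayed within the counting interval of the value reported. TMM scaling, which shifted all log2 ratios by 0.04, gave 1.033 for Lrp1 and 0.988 for Cd68. In cells with 0 Apoe and 0 interferon list UMIs the ratio was 1.032 for Lrp1 and reversed to 0.930 for Mrc1. In cells of 2000 to 4000 UMIs, a choice made after seeing the data, Cd68 gave 0.988, Mrc1 1.21 (0.817 to 1.79) and Cd36 1.499 (0.254 to 10.2). With the highest Scrublet scores removed the Dab2 interval, 0.751 to 0.994, no longer reached 1. With no minimum beyond 1 UMI in each library, 2 members stood at least 25% higher, and 8 other pathway genes stood that much higher and 3 at least 20% lower. The share over all genes was not computed at that setting, so these counts cannot be set against it. Within the plasma-positive library, the Mrc1 ratio between Apoe classes was 5.46 without cells bearing a border macrophage marker and 5.76 after thinning to 2000 UMIs, both added after seeing the data. The plasma-negative Cd68 ratio over the disease-associated list reversed to 0.798 without the 8% of cells with most UMIs, likewise added. Apart from the shares of cells with a UMI and the lower minimum, which compared more genes, the causes of these moves were not tested. Depth limits Mrc1, Msr1 and Cd36, whose UMIs number at most 185 in a library.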
